A study of Mus musculus with 11 samples.

Results

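Interferon-stimulated genes are genes whose transcription rises when a cell senses interferon, and 43 of them were examined among the 24421 genes listed in the count tables of a mouse wound study. The 43 were chosen by gene symbol in a working selection that was made with measured values of these same libraries in view. Which contrast served for that selection is not recorded, so every RNA contrast is treated as used, and the RNA values of the members are a description that supports nothing by itself. By function the members fall into 4 sensors of nucleic acid, 11 regulators, 18 effectors, 7 GTPases and 3 genes of antigen processing.

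Interferons bind receptors at the cell surface and activate the Janus kinases. Type I and type III interferons act through a complex with STAT2 and IRF9 that binds the interferon-stimulated response element (ISRE), while the response to interferon gamma acts through the gamma-activated site (GAS). In skin, keratinocytes make and answer interferons, interferon kappa being the type I form that they express, and the response limits viral infection.

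RNA was sequenced from keratinocytes of C57BL/6 mice (the methods give the C57BL/6J background) aged 8 weeks, sorted as cells positive for CD49F (integrin alpha 6) and negative for the leukocyte, endothelial and erythroid surface proteins CD45, CD31 and TER119. Mice labelled Grhl3-cKO carried Krt14-Cre, driven by the keratin 14 promoter and so active in basal epithelial cells, with floxed Grhl3, and their wild-type (WT) littermates carried Krt14-Cre too. Wounded samples came from the 1 mm margin of 4 mm punch wounds 3 days after wounding, and unwounded samples from skin far from the wound. There were 2 WT unwounded, 2 WT wounded, 1 Grhl3-cKO unwounded and 2 Grhl3-cKO wounded RNA libraries, and 1 list of open chromatin regions by ATAC-seq for each of the 4 conditions, with 4 wounds of 2 mice pooled per ATAC-seq sample. The labels do not say whether the 2 libraries of a group came from separate animals, while the authors give n = 2 per genotype for the RNA experiment.

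Counts assigned to genes were 15488699 and 16807451 in the WT unwounded libraries, 16653948 and 15418631 in the WT wounded libraries, 13497283 in the Grhl3-cKO unwounded library, and 15223569 and 14279568 in the Grhl3-cKO wounded libraries. Values per library are given in that order throughout, with replicate 1 before replicate 2. At these depths a count of 0 allows up to 0.178 to 0.222 CPM, the counts of a gene per 1000000 gene counts of its library, taken as 3 counts of the total. Intervals and floors cover counting error only.

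The genotype label was checked against Grhl3 itself. Grhl3 had 1893 and 1398 counts in the WT unwounded, 1831 and 1388 in the WT wounded, 1029 in the Grhl3-cKO unwounded, and 1765 and 1491 in the Grhl3-cKO wounded libraries. The wounded libraries labelled Grhl3-cKO therefore lay within the range of the WT libraries, and the counts of the whole gene do not show the deletion. Counts of a whole gene do not separate the floxed exons from the rest of the transcript. The authors report checking the deletion by PCR across the floxed part and by staining wounds for the protein, neither of which is among the files read here. Xist, which is transcribed from an inactive X chromosome, had 14854 counts in the Grhl3-cKO unwounded library and 3 to 32 in the other 6. The 4 Y-linked genes examined summed to 0 counts in that library and to between 2580 and 3589 in the others. The Grhl3-cKO unwounded library thus has the pattern of a female and the other 6 that of males, so that in every comparison with it genotype or wounding and sex cannot be told apart.

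No interferon was given in the study, so the label of the genes rests on their known biology and not on a response measured here. The 43 members together held 833 and 785 CPM in the WT unwounded, 886 and 1006 in the WT wounded, 757 in the Grhl3-cKO unwounded, and 794 and 838 in the Grhl3-cKO wounded libraries. The WT wounded pair was the highest of the groups. Most of the sum came from 18 members with a mean of at least 5 CPM, which held 732 to 941 CPM per library. The other 25 members held 25.3 and 27.5, 42.6 and 65.0, 25.3, and 22.5 and 35.7 CPM. Between 1 and 10 of the 43 had no count in a given library: 9 and 9 in the WT unwounded, 1 and 3 in the WT wounded, 10 in the Grhl3-cKO unwounded, and 8 and 4 in the Grhl3-cKO wounded libraries. In bulk RNA, fewer cells with a transcript and less of it per cell cannot be told apart.

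Per kilobase of exon, which allows levels to be compared between genes, the mean over the 7 libraries was highest for Ifitm3, a membrane protein that blocks viral fusion, at 153 CPM per kilobase. The transcription factor gene Irf1 followed at 48.5, the peptide transporter gene Tap1 at 42.0 and the immunoproteasome gene Psmb8 at 39.7. The lowest were Oas2 at 0.0489 and Trim30a at 0.0163. Members that share a name as interferon-stimulated genes thus differed in level over several orders of magnitude.

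A filter on low counts, applied to all genes by group, kept 14045 genes and 41 of the 43 members. Trim30a, with 6 counts in WT wounded replicate 1, 1 in Grhl3-cKO wounded replicate 2 and 0 elsewhere, and Ifit3, with 12 counts in WT wounded replicate 2 and 0 elsewhere, did not pass. A sparse member that passed through the group where it is high had to differ between groups, so counts over the 41 are a description. Wounding was read in WT keratinocytes with an edgeR quasi-likelihood fit over all 7 libraries, in which log2 fold changes are given with their standard error (SE). Of the 41 members, 34 had a positive and 7 a negative log2 fold change, WT wounded over WT unwounded. Their median was 0.63, beside 0.003 over all genes tested, and it was the same to 2 decimals with members at 0 set to their bound. The size of that median came mostly from the sparse members. It was 1.45 over those with a mean under 5 CPM, 0.24 over the others, and 0.25 with at least 10 counts required in every library. Of 23 sparse members tested, 18 were positive and 5 had an unadjusted p under 0.05, and of the 18 others 16 were positive and 6 had such a p.

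At an unadjusted p under 0.05, 11 members were higher after wounding and 0 lower, beside 3.18% of all genes higher and 1.67% lower. The 11 were Ifih1, Parp9, Parp14, Rtp4, Ifit1, Oasl2, Cmpk2, Samhd1, Gbp2, Gbp7 and Mx1, of which only Rtp4 and Gbp2 stayed under it in every alternative that tested them. After adjustment over all genes edgeR called 0 members and 0.0285% of all genes, 4 genes of 14045. DESeq2 then called 1 member, Gbp2, among 24 genes, and the edgeR likelihood ratio test 2, Gbp2 and Rtp4, among 49. Gbp2 was also the 1 member that edgeR called without a filter, among 96 genes of 16280, and without WT wounded replicate 1, among 29. At an unadjusted p under 0.05 DESeq2 had 13 members of 735 genes and the likelihood ratio test 16 of 1117, where edgeR had 11 of 680, and all these members were higher. Both WT wounded libraries lay above both WT unwounded libraries for 27 members, against 16.7% of all genes, and below them for 1, Xaf1, against 16.2%. An exact two-sided permutation test of 2 libraries against 2 cannot give a p below 0.333. The count of 11 fell to 7 when either WT unwounded library or the first WT wounded replicate was left out, and to 4 when the second WT wounded replicate was. Over all genes the 680 became 701 and 620 without the first and second WT unwounded library, and 770 and 779 without the first and second WT wounded one, so the fall without WT wounded replicate 2 was in the members and not over all genes.

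All 4 sensors had positive log2 fold changes after wounding in WT, with a median of 1.615 that was 0.69 without WT wounded replicate 2. Both wounded libraries lay above both unwounded ones for each, for Dhx58 by depth alone, since 1 library of each group had 5 counts. Ifih1 encodes MDA5, which binds long double-stranded RNA, and had 464 and 393 counts in the WT unwounded, 701 and 601 in the WT wounded, 421 in the Grhl3-cKO unwounded, and 388 and 461 in the Grhl3-cKO wounded libraries. The WT wounded pair stood above the other 5 libraries, with a log2 fold change over WT unwounded of 0.63 (SE 0.24). That value fell short of an unadjusted p of 0.05 when WT unwounded replicate 2 was left out, at 0.45, or WT wounded replicate 1, at 0.58. Ddx58 encodes RIG-I, a sensor of uncapped RNA ends, and ranged from 151 to 256 counts, with a log2 fold change of 0.23 (SE 0.31). The difference was smaller than its error. Zbp1, a sensor of Z-form nucleic acid, had 0 and 3, 11 and 35, 2, and 3 and 8 counts, a ratio of WT wounded to WT unwounded of 15.4 with a 95% counting interval from 4.96 to 77.6. WT wounded replicate 2 held 76.1% of the Zbp1 counts of its group, and the fitted log2 fold change ranged from 2.77 without it to 7.47 without WT unwounded replicate 2. Dhx58 encodes LGP2, which modulates the other RNA sensors, and had 1 and 5, 5 and 30, 1, and 17 and 6 counts. WT wounded replicate 2 held 85.7% of the Dhx58 counts of its group, and for both sparse sensors it was the highest of the 7 libraries.

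Among the 11 regulators, 8 of the 10 tested had positive log2 fold changes in WT wounded over unwounded, and the median was 0.44. Irf1, a transcription factor that interferon gamma induces, was the most abundant, with a level of 166 ± 31.7 CPM (SD, n = 2) in the WT unwounded, 167 ± 16.5 CPM in the WT wounded and 170 ± 3.33 CPM in the Grhl3-cKO wounded group. Its level did not differ beyond the spread between replicates, and its log2 fold change in WT took either sign over the alternatives, like those of Ifitm3, Irgm1, Tap1, Psmb8 and Psmb9. Parp9 and Dtx3l encode partners in a complex that ADP-ribosylates and ubiquitinates proteins. Parp9 had 167 and 272, 337 and 440, 272, and 380 and 277 counts. The WT groups did not overlap, the log2 fold change was 0.88 (SE 0.31), and the Grhl3-cKO wounded libraries lay on both sides of WT wounded replicate 1. Leaving out WT unwounded replicate 1 gave 0.63, and leaving out WT wounded replicate 2 gave 0.59, both with an unadjusted p over 0.05. Dtx3l had a log2 fold change of 0.40 (SE 0.24), and the 2 genes start 140 bases apart on opposite strands with 367 exon bases in common. Since the strand setting of the counting is not stated, reads in those bases may count for either gene or for neither.

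Parp14, a mono-ADP-ribosyltransferase, had 480 and 520 counts in the WT unwounded and 969 and 571 in the WT wounded libraries, 482 in the Grhl3-cKO unwounded, and 401 and 596 in the Grhl3-cKO wounded libraries. WT wounded replicate 1 stood far above the rest, and the log2 fold change of 0.64 (SE 0.27) was 0.29 without it. Leaving out WT unwounded replicate 1 or 2 gave 0.66 and 0.63, with an unadjusted p over 0.05. Stat2, which joins IRF9 in the complex that binds the ISRE, had 287 and 268, 418 and 343, 201, and 235 and 245 counts. Its 2 WT wounded libraries were the highest of all 7, with a log2 fold change of 0.48 (SE 0.28). The remaining regulators are Irf7, which amplifies type I interferon, Irf9, the DNA-binding part of the complex, Usp18, which removes ISG15 from proteins, the ubiquitin ligase genes Trim25 and Herc6, and Trim30a. Irf7 ranged from 30 to 91 counts, Irf9 from 305 to 602, Usp18 from 28 to 75, Trim25 from 697 to 914 and Herc6 from 39 to 88. Of the Herc6 exon bases, 26.6% are shared with the annotated gene Gm45193.

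The 18 effectors act on viral RNA, nucleotides or membranes, and of the 17 tested, 13 had positive and 4 negative log2 fold changes after wounding in WT. Their median was 1.43, 0.79 without WT wounded replicate 2 and 2.64 without WT unwounded replicate 2. Effectors without a count numbered 7 and 8 in the WT unwounded, 1 and 2 in the WT wounded, 9 in the Grhl3-cKO unwounded, and 6 and 4 in the Grhl3-cKO wounded libraries. Ifit1, whose product binds viral RNA that lacks the host cap methylation, had 17 and 0, 39 and 154, 7, and 7 and 11 counts. WT wounded replicate 2 held 79.8% of the counts of its group, and the groups did not overlap. The log2 fold change was 3.50 (SE 1.26), and 2.09 without that replicate, then with an unadjusted p over 0.05, but 9.56 without WT unwounded replicate 1, which held all 17 counts of its group. Oasl2, of the oligoadenylate synthetase family, had 8 and 8, 45 and 69, 4, and 10 and 20 counts, with a log2 fold change of 2.86 (SE 1.16). Its value lay between 2.43 and 3.18 over the alternatives of processing, and leaving out WT unwounded replicate 1 or 2 or WT wounded replicate 2 took its unadjusted p over 0.05, at 2.93, 2.79 and 2.43.

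Several effectors were at 0 in both WT unwounded libraries, so that only a lower bound can be given against a floor of 3 counts over the group. Rtp4, a transmembrane protein gene that interferon induces, had 0 and 0, 41 and 27, 10, and 6 and 15 counts, and was at least 22.8-fold higher in WT wounded than in WT unwounded keratinocytes. Cmpk2, a mitochondrial nucleotide kinase gene next to Rsad2, had 0 and 0, 20 and 19, 0, and 0 and 7 counts, at least 13.1-fold higher. Both WT wounded libraries carried these transcripts at like levels, but Cmpk2 had an unadjusted p over 0.05 without any one of the 4 WT libraries. With a replicate block in the fit Cmpk2 lost that threshold too. Oas2, which makes the oligoadenylates that activate RNase L, had 0 and 0, 1 and 20, 0, and 0 and 0 counts, at least 7.05-fold higher, with 95.2% of its counts from WT wounded replicate 2. Oasl1, which in mice restrains the translation of Irf7, had 0 and 0, 13 and 8, 0, and 0 and 0 counts, again at least 7.05-fold higher. Ifit3 was at least 4.03-fold higher and Trim30a at least 2.01-fold higher, each from the counts of 1 library, so these bounds rest on that library alone.

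Isg15 encodes the ubiquitin-like protein that is joined to other proteins in the response, and had 4 and 15 counts in the WT unwounded, 53 and 42 in the WT wounded, 0 in the Grhl3-cKO unwounded, and 22 and 30 in the Grhl3-cKO wounded libraries. Both genotypes thus had more Isg15 counts in each wounded than in each unwounded library, with the WT wounded pair the highest. Rsad2 encodes viperin, which makes a chain-terminating nucleotide, and had 0 and 29, 5 and 39, 0, and 0 and 1 counts. Its counts came mostly from replicate 2 of each WT group, and the WT groups overlapped, with a log2 fold change of 0.74 (SE 1.96). Leaving out WT wounded replicate 2 gave -1.49, and leaving out WT unwounded replicate 2 gave 7.42. Xaf1, which promotes cell death, went the other way in WT, with 47 and 35, 32 and 11, 2, and 13 and 22 counts. Ifitm3 had 905 to 2248 counts and a log2 fold change of -0.17 (SE 0.22) after wounding in WT, smaller than its error. The dNTP hydrolase gene Samhd1 had 611 and 527, 657 and 1043, 483, and 689 and 500 counts, a log2 fold change of 0.62 (SE 0.27). Its first replicates of the 2 WT groups were equal per depth to within rounding, and the value was 0.16 without WT wounded replicate 2 and 0.46 without WT unwounded replicate 2, both with an unadjusted p over 0.05. With only the 4 libraries compared Samhd1 had 0.63, again with an unadjusted p over 0.05. Eif2ak2, which encodes the RNA-activated kinase PKR, had 327 to 516 counts, and Bst2, which encodes tetherin, 10 to 31. The remaining effectors, Ifit2, Oas1a, Oas3 and Ifi44, had at most 19, 65, 28 and 15 counts in any library.

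The 7 GTPases include the guanylate-binding proteins and immunity-related GTPases that attack the vacuoles of pathogens, and the Mx proteins that block viral nucleocapsids. The class summed to 36.1 and 30.1, 60.4 and 75.9, 27.9, and 35.7 and 34.9 CPM. The median log2 fold change after wounding in WT was 1.01, and 2.02 without WT unwounded replicate 1. The WT wounded pair stood above the other 5 libraries, and Gbp2 gave the largest share of that sum in those 2 libraries. Gbp2 had 215 and 142 counts in the WT unwounded, 511 and 658 in the WT wounded, 167 in the Grhl3-cKO unwounded, and 372 and 177 in the Grhl3-cKO wounded libraries, or 11.2 ± 3.84, 36.7 ± 8.48 and 18.4 ± 8.51 CPM (SD, n = 2) in the 3 groups with replicates. The WT wounded libraries were the highest of the 7. Its log2 fold change of 1.74 (SE 0.37) had the smallest adjusted p among the members, 0.169 by edgeR over all genes, with both WT wounded libraries above both WT unwounded ones. Over 14 alternatives of processing, leaving out each library among them, the log2 fold change of Gbp2 ranged from 1.42 to 2.15.

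Gbp7 had 60 and 101, 173 and 141, 40, and 85 and 76 counts, with a log2 fold change of 1.01 (SE 0.45). The WT wounded pair was again the highest, but the value without WT unwounded replicate 1 was 0.74, without WT wounded replicate 1 0.92 and without WT wounded replicate 2 1.08, each with an unadjusted p over 0.05, and DESeq2 put it over that threshold too. Mx1, which in C57BL/6 mice yields no functional protein, had 1 and 2, 3 and 74, 6, and 0 and 28 counts, and WT wounded replicate 2 held 96.1% of the counts of its group. The ratio of WT wounded to WT unwounded was 25.8 with a 95% counting interval from 8.52 to 128, and the log2 fold change of 4.67 (SE 2.1) was 0.92 without WT wounded replicate 2. It also lost an unadjusted p under 0.05 without WT unwounded replicate 1, at 4.33, or 2, at 5.12, and with a replicate block in the fit. Irgm1 had 154 and 111, 140 and 150, 64, and 18 and 106 counts, so that Grhl3-cKO wounded replicate 1 was far below the rest, and its WT log2 fold change was 0.16 (SE 0.59). Mx2 had 8 to 31 counts, Gbp3 10 to 64 and Igtp 36 to 132. Igtp and Irgm2 start 30 bases apart and share 162 exon bases, 8.0% of those of Igtp. Of the exon bases of Gbp7, 11.3% are shared with the annotated gene Gm43802, and of those of Rtp4, 15.2% with Gm45338.

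The 3 antigen-processing members did not change beyond their error after wounding in WT. Tap1, which carries peptides into the endoplasmic reticulum, had 1992 and 1963, 2076 and 1930, 1898, and 1620 and 1795 counts, with a log2 fold change of 0.05 (SE 0.17). Psmb8, a catalytic subunit of the immunoproteasome, had 776 to 1222 counts and a log2 fold change of 0.16 (SE 0.21). Psmb9, another such subunit, had 137 to 242 counts and a log2 fold change of 0.004 (SE 0.32). Psmb9 and Tap1 start 38 bases apart on opposite strands and share 212 exon bases, and 11.4% of the Psmb8 exon bases are shared with Gm20496 on the opposite strand. The class summed to 209 and 190, 200 and 217, 220, and 166 and 207 CPM, so that its WT groups overlapped, as did those of the effectors, whose sums of 172 and 200 against 173 and 251 CPM Ifitm3 dominated, while those of sensors, regulators and GTPases did not overlap.

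**Figure D1:**
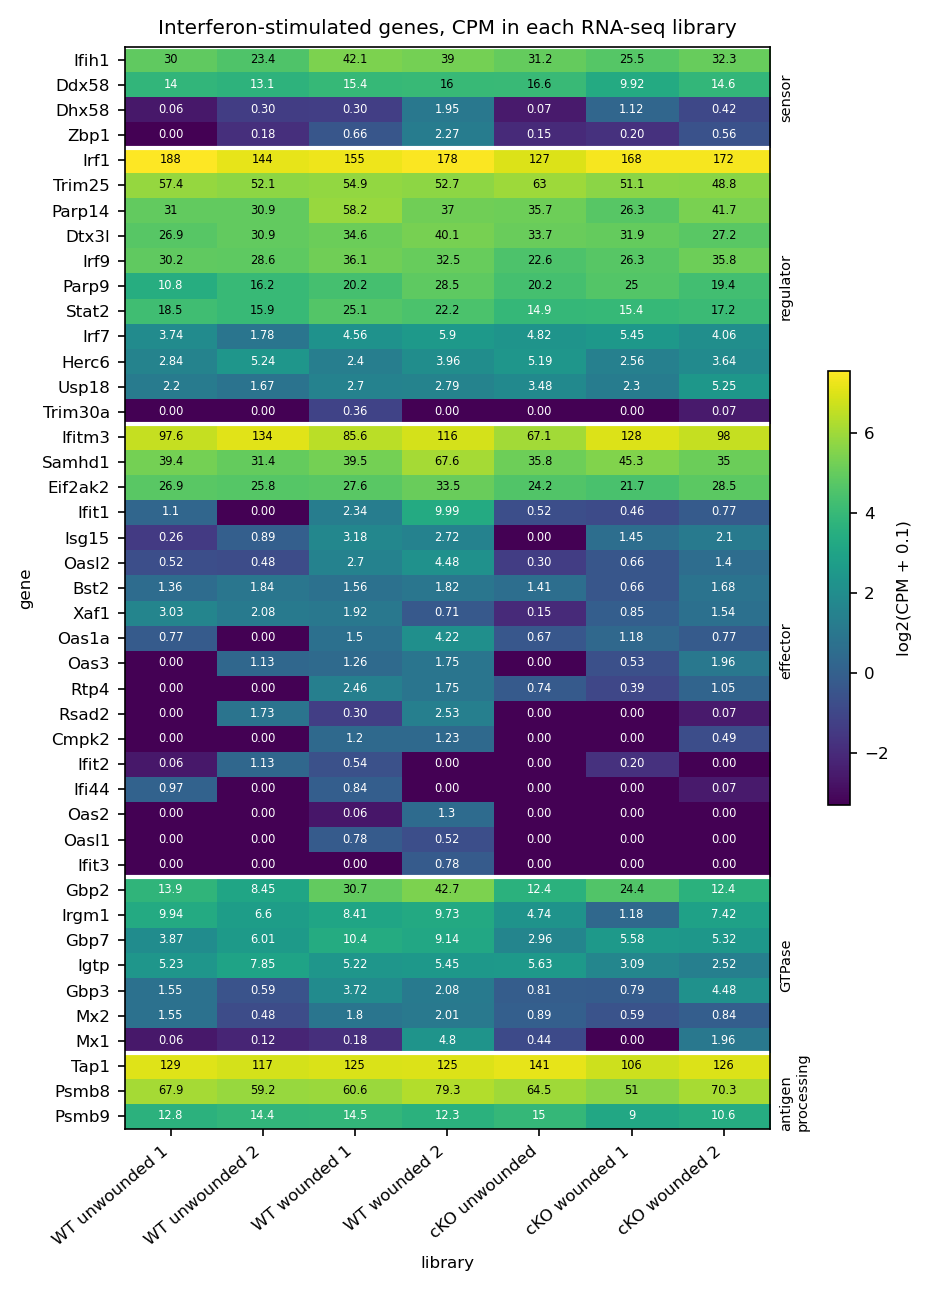
Level of each member (1 per line, by role) in each of the 7 RNA libraries (1 per column), with the CPM printed in each cell and the colour showing its log2 after adding 0.1; cKO stands for the label Grhl3-cKO. Sparse effectors such as Rtp4 and Cmpk2 are at 0 in both WT unwounded libraries, while Tap1 holds 106 to 141 CPM in all 7.

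Whether the wounded keratinocytes differed by genotype was read from the 2 Grhl3-cKO wounded against the 2 WT wounded libraries. This comparison shares the WT wounded libraries with the one above, and a count that is high in them enters both. Of the 41 members tested, 3 had a positive and 38 a negative log2 fold change, Grhl3-cKO over WT, with a median of -0.51 beside -0.009 over all genes. That median was -1.36 over members with a mean under 5 CPM and -0.33 over the others, and -0.29 with at least 10 counts in every library. At an unadjusted p under 0.05 edgeR called 2 lower, Ifit1 and Gbp2, and 0 higher, beside 2.08% and 1.96% of all genes. After adjustment it called 0 members and 0% of genes, and DESeq2 and the edgeR likelihood ratio test also called 0 members, among 3 genes and 1. At an unadjusted p under 0.05 DESeq2 had 3 members of 556 genes and the likelihood ratio test 5 of 873, where edgeR had 2 of 567, and all these members were lower. Both Grhl3-cKO libraries lay below both WT libraries for 20 members and above for 0, beside 15.2% and 15.3% of all genes. The count of 2 was 4 without WT wounded replicate 1, and 1 without WT wounded replicate 2 or without Grhl3-cKO wounded replicate 1.

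By role, negative values in this comparison numbered 4 of 4 sensors, 8 of 10 regulators, 16 of 17 effectors, 7 of 7 GTPases and 3 of 3 antigen-processing genes, with medians of -0.49, -0.11, -1.51, -0.96 and -0.19. Without WT wounded replicate 1 the medians of sensors, regulators, effectors and antigen-processing genes were -0.86, -0.20, -0.68 and -0.31, and without replicate 2 those of regulators, effectors and antigen-processing genes were 0.003, -0.81 and -0.07. Without Grhl3-cKO wounded replicate 1 the sensors had -0.86, the regulators -0.17 and the antigen-processing genes 0.003, and without replicate 2 the regulators had -0.18, the GTPases -1.61 and the antigen-processing genes -0.40. The order of the roles thus rests on single libraries. Ifit1 had a log2 fold change of -3.30 (SE 1.25), which was -1.89 without WT wounded replicate 2, -2.99 without Grhl3-cKO wounded replicate 1 and -3.67 without Grhl3-cKO wounded replicate 2, each with an unadjusted p over 0.05. Gbp2 had -0.96 (SE 0.36), and -0.69 without WT wounded replicate 2 or -0.53 without Grhl3-cKO wounded replicate 2, again over that threshold, but -1.57 without Grhl3-cKO wounded replicate 1. Both calls thus rest on single libraries. Oas2 and Oasl1 were each at least 6.44-fold lower, for Oas2 from the 20 counts of WT wounded replicate 2 and 1 of replicate 1, Ifit3 at least 3.68-fold lower, and for Rsad2 the ratio was 0.0247 with a 95% counting interval from 0.000612 to 0.145. Rsad2 reached an unadjusted p under 0.05 without WT unwounded replicate 1 or WT wounded replicate 1, at fitted values of -5.06 and -5.90, and by DESeq2, by the likelihood ratio test and without a filter. Its value was -5.06 over all libraries and -2.84 without WT wounded replicate 2, which held 88.6% of the WT wounded counts. Ifi44 had a ratio of 0.0776, with an interval from 0.00184 to 0.51. All 14 WT wounded counts of Ifi44 came from replicate 1, and all 12 of Ifit3 from replicate 2.

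The log2 fold changes of the other members named by the rule, Grhl3-cKO over WT wounded, were -0.47 for Ifih1, -0.34 for Ddx58, -1.93 for Zbp1 and -0.51 for Dhx58 among the sensors. Zbp1 ranged from -2.79 to -0.77 over the alternatives, the smallest difference without WT wounded replicate 2, and Ddx58 from -0.60 to -0.10. Dhx58 was 1.39 without WT wounded replicate 2 and 0.05 without Grhl3-cKO wounded replicate 2, so its direction rests on single libraries. Among the regulators they were -0.52 for Stat2, -0.47 for Parp14, -0.32 for Dtx3l, -0.11 for Parp9 and 0.05 for Irf1. Parp9 ranged from -0.34 to 0.18 over the alternatives, and Irf1 turned negative in 1 of them. Parp14 had an unadjusted p under 0.05 without WT wounded replicate 2, at -0.74, or Grhl3-cKO wounded replicate 2, at -0.79, and was -0.11 without WT wounded replicate 1. Rtp4 had -1.53, Oasl2 -1.79 and Ifitm3 0.19 among the effectors, and Psmb9 -0.43, Psmb8 -0.19 and Tap1 -0.09 in antigen processing. Over the alternatives Rtp4 reached -2.33, and the sign turned for Ifitm3, from -0.04 to 0.44, Psmb8, from -0.40 to 0.03, and Tap1. Gbp7 had -0.82 and Mx1 -1.36, the latter with 2.39 without WT wounded replicate 2 and, with an unadjusted p under 0.05, -8.28 without Grhl3-cKO wounded replicate 2, where the remaining replicate is at 0. Irgm1 had -1.08, which was -2.87 without Grhl3-cKO wounded replicate 2, then with an unadjusted p under 0.05, and -0.29 without Grhl3-cKO wounded replicate 1, the library with 18 counts that carries the difference.

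Comparisons with the single Grhl3-cKO unwounded library have no test, and a gene is counted when every library pair differs at least 2-fold in the same direction. Against it the 2 Grhl3-cKO wounded libraries were higher for 4 members, Dhx58, Oas3, Isg15 and Xaf1, and lower for 0, beside 5.69% and 3.89% of all genes. The 4 are sparse, the highest count of any of them in these 3 libraries being 30. With only Grhl3-cKO wounded replicate 2 the count was 10, and with only replicate 1 it was 8. The unwounded library itself was above both WT unwounded libraries for 2 members, Rtp4 and Mx1, and below both for 2, Isg15 and Xaf1, beside 4.98% and 5.01% of all genes. Without WT unwounded replicate 1 the 4 became 12, and without replicate 2 they became 7. Rtp4 had 10 counts there against 0 and 0, and Isg15 had 0 against 4 and 15.

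The genes around the members were taken from 6 lists of 128 pathway genes, of which 127 are in the count tables. Of the 21 interferon genes, 19 were at 0 in all 7 libraries, and the interferon kappa gene Ifnk was the one that passed the filter. Ifnk had 10 and 7, 22 and 26, 14, and 12 and 21 counts, with a log2 fold change of 1.51 (SE 1.40) after wounding in WT. In CPM the WT wounded libraries, at 1.32 and 1.69, lay above both WT unwounded ones and on both sides of Grhl3-cKO wounded replicate 2, at 1.47, and the difference was close to its error. All 9 receptor and kinase genes and all 11 signal transducer and feedback genes were tested. Among these 20, 0 were higher and 1 was lower in the wounded WT libraries at an unadjusted p under 0.05, the phosphatase gene Ptpn6, at -0.61 (SE 0.28). Without WT unwounded replicate 1 or 2 or WT wounded replicate 1, Ptpn6 had -0.68, -0.54 and -0.40 with a p over that threshold, as it had by DESeq2 and with only the 4 libraries compared. The most abundant of these lists were Jak1, at 0.12 (SE 0.15), and Socs3, a feedback inhibitor, at -0.24 (SE 0.16). Of 16 genes of nucleic acid sensing upstream of interferon, 13 were tested and 0 had an unadjusted p under 0.05, Myd88 being the most abundant, at -0.18 (SE 0.21).

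Of 39 other interferon-stimulated genes tested, 4 were higher and 0 lower in the wounded WT libraries at an unadjusted p under 0.05. The chemokine gene Cxcl10 had 69 and 85, 229 and 175, 56, and 93 and 123 counts, a log2 fold change of 1.42 (SE 0.40). It lay between 1.28 and 1.54 over 14 alternatives. Oas1g, a paralog of Oas1a, had 0 and 0, 20 and 47, 7, and 2 and 12 counts and was at least 22.5-fold higher. Gbp5 had 1 and 0, 29 and 34, 0, and 0 and 1 counts, a ratio of 63.4 with a 95% counting interval from 11 to 2540. Its unadjusted p was over 0.05 without WT unwounded replicate 2 or either WT wounded library, at fitted log2 fold changes of 4.78, 5.82 and 5.47. Helz2, a nuclear receptor coactivator gene, had a log2 fold change of 0.66 (SE 0.31), which was 0.21 without WT unwounded replicate 2 or WT wounded replicate 1, and its p was over the threshold too without any one of the Grhl3-cKO libraries, at 0.66 each time. Leaving out WT unwounded replicate 1 gave 1.32, and Helz2 kept the threshold in 5 of 14 alternatives. Ly6e was the most abundant, at -0.16 (SE 0.20).

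Of 17 tested genes for antigen presentation, 2 class II genes were higher after wounding in WT, Cd74 at 1.16 (SE 0.52) and H2-Aa at 1.75 (SE 0.80). Cd74 was 0.12 without WT wounded replicate 2, 0.53 without WT unwounded replicate 1 and 1.16 without any one Grhl3-cKO library, each with an unadjusted p over 0.05, but 2.31 without WT unwounded replicate 2, and it kept the threshold in 7 of 14 alternatives. H2-Aa lost that threshold at 1.28 without WT unwounded replicate 1, 1.23 without WT wounded replicate 2, and 1.76 and 1.75 without Grhl3-cKO wounded replicates 1 and 2, and also with only the 4 libraries compared. The class I gene H2-K1, the most abundant, had 842 ± 3.10 CPM in the WT unwounded and 841 ± 5.45 CPM in the WT wounded group (SD, n = 2), a log2 fold change of 0.02 (SE 0.14). Over all 90 pathway genes tested edgeR called 0 after adjustment, with 6 higher and 1 lower at an unadjusted p under 0.05. In the genotype comparison 1 was higher at that threshold, the interferon gamma receptor gene Ifngr1, at 0.54 (SE 0.19), and 0.47 without Grhl3-cKO wounded replicate 1, then over it. The 3 lower were Helz2, at -0.73 (SE 0.31), Gbp5, with a ratio of 0.0173 and an interval from 0.00043 to 0.0997, and Ifi47, at least 11-fold lower. Helz2 had -0.28 without WT wounded replicate 1, and lost the threshold too without any Grhl3-cKO library, at -0.72, -0.76 and -0.69. Gbp5 lost it with a replicate block and without any one of the 4 wounded libraries, at fitted values from -7.94 to -4.67. Ifi47 falls outside the rule for naming genes and was named after its value was seen.

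Marker genes of the labelled and of other cell types were summed per library. The 7 basal keratinocyte genes, led by Krt14, held 33079 to 46756 CPM, the highest of all marker sums. The 5 wound keratinocyte genes, led by Krt16, held 4469 and 5570, 6523 and 9689, 2623, and 7025 and 4850 CPM. Of these genes Krt16 and Itga5 did not overlap between the WT groups, while Krt6a, Krt6b and Krt17 did. Krt6a had 518 and 1642 against 1484 and 3402 CPM, and Krt6b too was higher in WT unwounded replicate 2 than in WT wounded replicate 1. The hair follicle genes, led by Krt79, held 1422 to 2976 CPM. The suprabasal genes, led by Krt1, held 6306 and 6958, 3706 and 5406, 9530, and 6740 and 8413 CPM. The WT wounded pair, the highest for the summed members, was thus the lowest of all libraries for this sum. Krt1 had a log2 fold change of -0.66 (SE 0.20) after wounding in WT. Between genotypes, Grhl3-cKO over WT wounded, it had 0.77 (SE 0.205). WT wounded replicate 2, in which Ifit1 and Mx1 were highest, also had the highest wound keratinocyte sum. Leukocyte genes held at most 2.07 CPM, the CD45 gene Ptprc having 0 and 9, 0 and 0, 0, and 11 and 0 counts, and Tyrobp and Fcer1g none. T cell genes held at most 0.194 CPM, with Cd3e at 0, and erythroid genes at most 0.910 CPM, led by Alas2.

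Macrophage and monocyte genes, led by Cd68, held 3.74 and 2.32, 6.55 and 12.7, 2.07, and 5.45 and 10.2 CPM, and Lyz2 had 0 and 0, 16 and 37, 0, and 9 and 40 counts. The neutrophil genes, led by S100a9 and with Retnlg at 0, held 12.7 and 13.3, 7.99 and 28.3, 1.04, and 13.9 and 8.61 CPM. Both sums were highest in WT wounded replicate 2, where S100a9 and S100a8 held 18.6 and 6.10 CPM of the neutrophil sum. The other neutrophil genes did not follow. Cxcr2 overlapped between the WT groups, at 2.78 and 5.41 against 1.68 and 3.57 CPM, and Csf3r had at most 2 counts in any library. Endothelial genes, led by Vwf, held 4.33 and 6.96, 42.7 and 24.2, 1.93, and 17.2 and 23.5 CPM, although the sort removed cells with CD31, the product of Pecam1, which had 1 and 23, 100 and 31, 4, and 59 and 15 counts. Mural genes, led by Acta2, held 1.29 and 3.93, 30.6 and 12.3, 1.11, and 3.81 and 8.96 CPM. The macrophage, endothelial and mural sums, like Isg15, were higher in each wounded than in each unwounded library of the same genotype. So were Lyz2, Cdh5, Flt1 and Acta2, but not every gene of these lists. Cd68 overlapped between the WT groups, at 3.42 and 1.25 against 3.72 and 3.11 CPM, as did Csf1r, Emcn and Pdgfrb. Esam was lower in both WT wounded libraries, at 0.387 and 0.892 against 0.120 and 0 CPM.

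Fibroblast genes, led by Thy1, held 65.7 and 73.1, 50.4 and 112, 37.1, and 86.4 and 107 CPM, the highest again in WT wounded replicate 2. The melanocyte genes, led by Mitf, held 24.8 to 54.0 CPM, and Langerhans and dendritic cell genes, led by Epcam, 208 to 446 CPM with Itgax and Siglech at 0. Single genes of these lists moved apart from the sums. In WT, Col1a2 had a log2 fold change of 1.17 (SE 0.41) after wounding, and Dct 2.83 (SE 0.95), while Mitf had -0.61 (SE 0.25), each with an unadjusted p below 0.05. Tyr, with 0 and 2, 40 and 25, 14, and 6 and 18 counts, was also higher at that threshold in WT. Col1a2, Dct and Dcn were higher in each wounded than in each unwounded library of both genotypes. Other genes of these lists did not follow. Pdgfra, at 0.710 and 0.714, 0.120 and 0.454, 1.26, and 0.328 and 0.700 CPM, was lower in each wounded than in each unwounded library. Col1a1 overlapped between the WT groups, at 12.1 and 6.43 against 4.32 and 15.4 CPM, as did Tyrp1 and Pmel. Thy1 had a log2 fold change of 0.04 (SE 0.30) after wounding in WT. Epcam alone held 187 to 436 CPM of the last sum, and that list also holds the class II genes Cd74 and H2-Aa described above. The part of these cell types in the values of the members was not tested.

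Open chromatin was read from 1 peak list per condition, which holds 10769 regions for WT unwounded, 36872 for WT wounded, 29364 for Grhl3-cKO unwounded and 22474 for Grhl3-cKO wounded keratinocytes. Because the lists differ in length, members are set beside all annotated genes and beside the genes that passed the RNA filter. A region lay within 5000 bases of 9, 29, 26 and 26 of the 43 members in that order of lists. Those are 20.9%, 67.4%, 60.5% and 60.5% of members, beside 33.3%, 60.7%, 56.7% and 47.7% of all annotated genes and 50.7%, 84.6%, 81.0% and 68.7% of genes that passed the filter. The members were thus below the genes that passed the filter in each list, and on both sides of all annotated genes. Within 1000 bases of an annotated start, 8, 26, 22 and 22 members had a region, or 18.6%, 60.5%, 51.2% and 51.2%. All annotated genes had 24.6%, 46.1%, 42.6% and 36.2%, and the genes that passed the filter had 40.1%, 71.7%, 67.5% and 57.3%. With each list held to its 10769 strongest regions, 8, 5, 9 and 10 members had a start region, beside 24.6%, 20.9%, 22.4% and 22.0% of all annotated genes and 40.1%, 33.5%, 36.1% and 35.3% of those that passed the filter. The WT wounded list then held fewer members than the WT unwounded one.

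At the start, the WT wounded list held 2 of 4 sensors, 8 of 11 regulators, 6 of 18 effectors, 7 of 7 GTPases and 3 of 3 antigen-processing genes. The WT unwounded list held 1, 3, 1, 3 and 0 of them, the Grhl3-cKO unwounded list 2, 8, 5, 5 and 2, and the Grhl3-cKO wounded list 2, 8, 4, 6 and 2. Effectors had the smallest share in 3 of the 4 lists, all but WT unwounded. Parp9 and Dtx3l share their start regions, as do Psmb9 and Tap1. A start region was present in all 4 lists for 8 members, Ifih1, Irf9, Stat2, Herc6, Ifit1, Mx2, Gbp7 and Irgm1, and in none for 14, Dhx58, Zbp1, Trim30a, Ifit3, Oas1a, Oas2, Oas3, Oasl1, Oasl2, Rtp4, Isg15, Ifi44, Xaf1 and Ifitm3. Among the 14 were Rtp4, which had counts in the wounded and none in the unwounded WT libraries, and Ifitm3, which had the highest level per kilobase of all members. The lists of both genotypes after wounding, and neither before, held start regions of 4 members, Irf1, Parp14, Eif2ak2 and Igtp. Of all annotated genes, 23.3% had a start region in all 4 lists, 50.9% in none and 1.45% in both wounded lists only, and of genes that passed the filter 37.9%, 24.0% and 1.86%. Among members these shares were 18.6%, 32.6% and 9.3%. A start region in every list but WT unwounded, the shortest, was found for 10 members (23.3%), Ddx58, Usp18, Parp9, Dtx3l, Ifit2, Bst2, Gbp2, Gbp3, Psmb9 and Tap1. Of all annotated genes 10.5% had that pattern, and of genes that passed the filter 16.2%.

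Ifit1 had a region at its start in every list, in mm10 at chr19:34640726-34641008 in WT unwounded keratinocytes with a 4.66-fold enrichment over local background, and at chr19:34640543-34640856 in WT wounded ones with 3.83-fold. The gene Ifit1bl2 starts 128 bases away on the opposite strand, so the region may belong to either start. The Ifit1 start was thus listed as open in unwounded keratinocytes, where its RNA had 17 and 0 counts. Gbp2 had none in the WT unwounded list and 1 at chr3:142620460-142620890 in the WT wounded list, enriched 4.18-fold. It was also present in both Grhl3-cKO lists, with 3.6-fold in the unwounded and 4.16-fold in the wounded. A start region in the WT wounded list only was found for 3 members, Rsad2 at chr12:26456277-26456689 with 4.42-fold, Mx1 at chr16:97462751-97463137 with 3.6-fold, and Psmb8 at chr17:34197537-34198125 with 3.56-fold. Of all annotated genes 4.26% had a start region in that list only, and of those that passed the filter 5.57%. That list is the longest, and no list has a replicate.

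**Figure D2:**
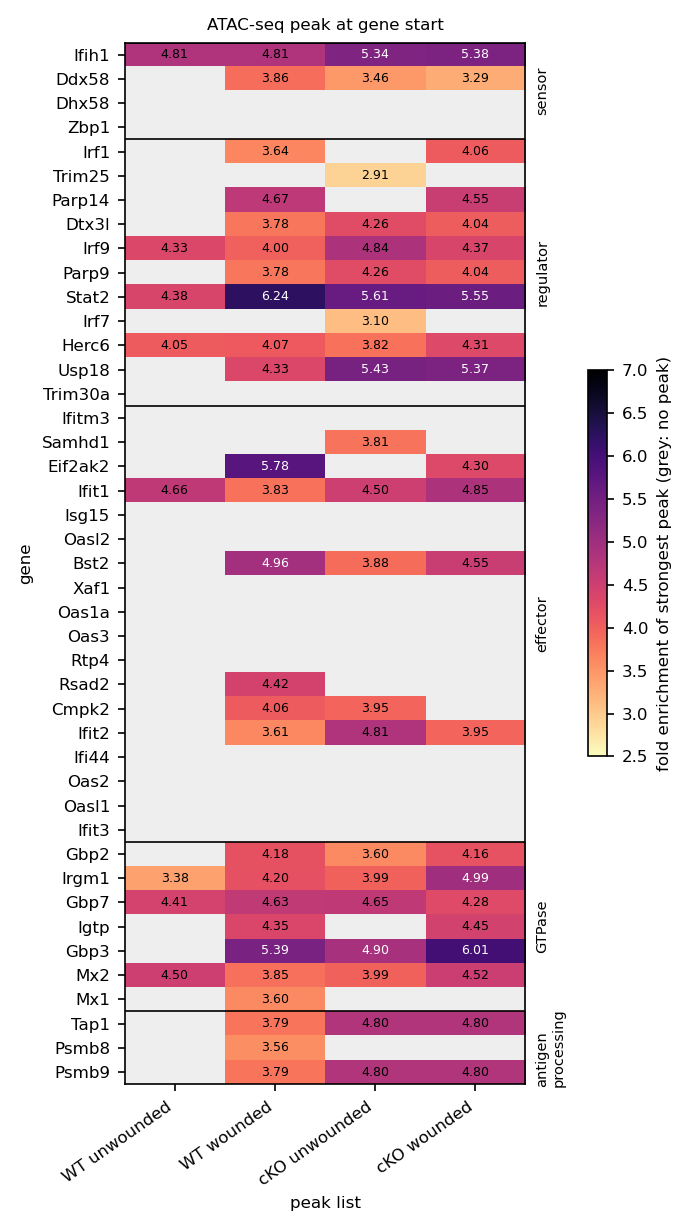
ATAC-seq regions within 1000 bases of an annotated start of each member (1 per line, by role) in each of the 4 peak lists (1 per column), with the fold enrichment of the strongest region as number and colour, and grey where the list has none. The WT wounded list holds 26 members and the WT unwounded list, the shortest, 8.

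**Figure D3:**
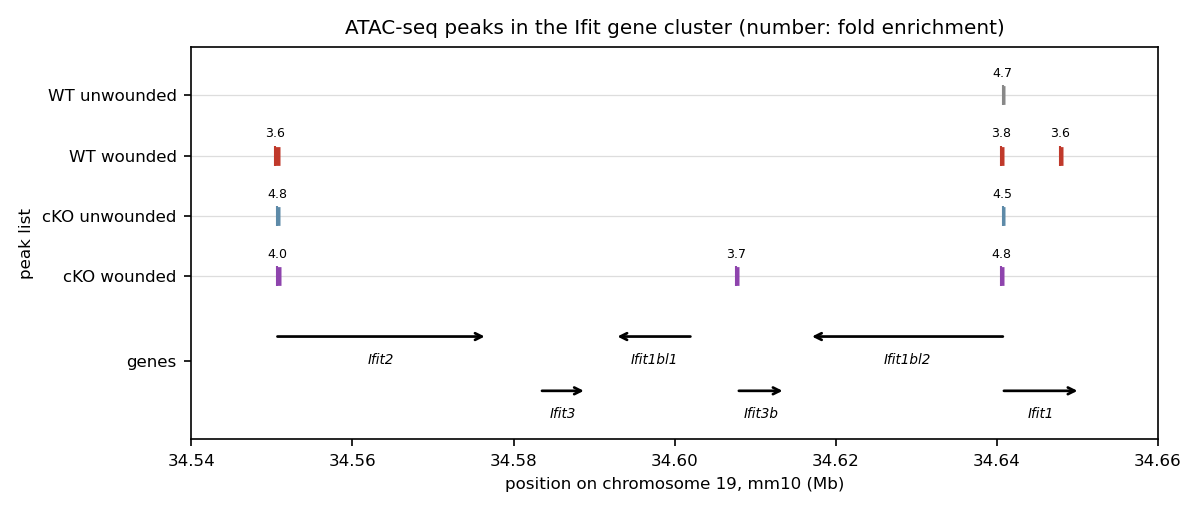
Listed ATAC-seq regions (bars, with fold enrichment) in the 4 conditions and genes (arrows in the direction of transcription) around the Ifit cluster on chromosome 19, with position in mm10 in megabases along the x axis. The start of Ifit1, next to that of Ifit1bl2, has a region in all 4 lists and that of Ifit3 in none.

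Promoter windows from RefSeq (GRCm38.p6, 250 bases before to 50 after each start) were available for 34 of the 43 members, the missing ones being Dhx58, Zbp1, Usp18, Parp9, Parp14, Oas2, Rtp4, Mx1 and Mx2. The windows were searched on both strands for the ISRE core, written as GAAA, then any 2 bases, then GAAA, and for the GAS, TTCNNNGAA, whose matches may overlap those of the core. An ISRE core was present for 18 of the 34 members (52.9%), beside 3.99% of 27025 genes with a window, and 3.57% of those that passed the RNA filter. Single windows of this length held it in 3.44% of 32851 cases. A GAS was present for 10 members (29.4%), beside 9.55% of all genes, 8.39% of those that passed the filter and 8.3% of single windows. By role the core was found in 2 of 2 sensors, 2 of 8 regulators, 9 of 16 effectors, 5 of 5 GTPases and 0 of 3 antigen-processing genes, and the GAS in 0, 1, 6, 2 and 1 of them. A match is a description of letters and not of binding. Of the 18 members with a core, 5, 12, 9 and 11 had a start region in the WT unwounded, WT wounded, Grhl3-cKO unwounded and Grhl3-cKO wounded lists, and for 5, 11, 8 and 10 of them a core overlapped a listed region. The overlap was only partial for Gbp7 in the WT wounded and for Stat2 in the Grhl3-cKO wounded list. Of the 16 members without one, 2, 9, 10 and 7 had a start region.

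Whole windows are shown for Ifit1, with a start region in every list, Isg15, with none, and Gbp2, with the lowest adjusted p among members, with capitals marking ISRE core matches.
Ifit1 (chr19:34640639-34640938, plus strand): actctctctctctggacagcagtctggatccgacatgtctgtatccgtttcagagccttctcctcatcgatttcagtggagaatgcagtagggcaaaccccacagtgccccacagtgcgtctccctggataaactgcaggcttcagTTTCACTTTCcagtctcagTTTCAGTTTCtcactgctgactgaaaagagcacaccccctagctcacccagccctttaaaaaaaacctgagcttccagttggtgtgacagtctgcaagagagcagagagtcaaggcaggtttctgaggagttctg
Isg15 (chr4:156200769-156201068, minus strand): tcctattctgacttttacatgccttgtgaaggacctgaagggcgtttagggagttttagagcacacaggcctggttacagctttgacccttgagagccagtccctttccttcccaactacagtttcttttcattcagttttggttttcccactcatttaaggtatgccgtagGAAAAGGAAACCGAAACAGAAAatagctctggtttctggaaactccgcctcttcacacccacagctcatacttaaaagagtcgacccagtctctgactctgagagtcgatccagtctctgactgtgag
Gbp2 (chr3:142620413-142620712, plus strand): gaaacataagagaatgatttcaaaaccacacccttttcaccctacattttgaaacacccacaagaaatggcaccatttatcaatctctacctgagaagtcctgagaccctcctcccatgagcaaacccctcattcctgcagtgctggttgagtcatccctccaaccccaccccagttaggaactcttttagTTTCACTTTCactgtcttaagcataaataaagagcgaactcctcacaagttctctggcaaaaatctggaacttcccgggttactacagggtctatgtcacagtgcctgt
The Isg15 window holds 3 overlapping cores, that of Ifit1 holds 2 and that of Gbp2 holds 1.

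Stretches of 50 bases around the core are shown for further members of each role that has one, so that the spacing of the repeats can be compared. Capitals mark ISRE core matches and, in Igtp, a GAS match that precedes the core.
Ifih1 (chr2:62646206-62646255, minus strand): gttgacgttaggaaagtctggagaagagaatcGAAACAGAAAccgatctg
Ddx58 (chr4:40239794-40239843, minus strand): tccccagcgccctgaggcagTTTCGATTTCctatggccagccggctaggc
Stat2 (chr10:128270256-128270305, plus strand): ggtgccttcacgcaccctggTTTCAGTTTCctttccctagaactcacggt
Oas1a (chr5:120907516-120907565, minus strand): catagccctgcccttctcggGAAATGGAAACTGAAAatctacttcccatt
Rsad2 (chr12:26456543-26456592, minus strand): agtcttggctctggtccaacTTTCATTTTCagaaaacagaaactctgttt
Gbp7 (chr3:142530263-142530312, plus strand): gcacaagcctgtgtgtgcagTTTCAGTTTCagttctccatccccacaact
Irgm1 (chr11:48871421-48871470, minus strand): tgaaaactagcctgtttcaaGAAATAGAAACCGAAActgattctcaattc
Igtp (chr11:58199502-58199551, plus strand): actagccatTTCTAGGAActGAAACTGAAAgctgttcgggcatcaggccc
For members with a GAS and no core, the stretch around the GAS is shown, in capitals, for the most abundant regulator, Irf1, and for an immunoproteasome gene, Psmb8.
Irf1 (chr11:53769904-53769953, plus strand): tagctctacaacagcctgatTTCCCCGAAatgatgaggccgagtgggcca
Psmb8 (chr17:34198078-34198127, plus strand): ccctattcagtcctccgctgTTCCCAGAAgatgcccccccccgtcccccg
Among members with a window that were tested, the median log2 fold change after wounding in WT was 0.69 over 16 with a core and 0.11 over 16 without one, and between genotypes it was -0.62 and -0.25. These medians were not tested, and the members were chosen with their changes known.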

How the data were processed

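RNA-seq of sorted keratinocytes gave 1 file of raw read counts per gene symbol for each of 7 libraries, as the authors deposited them. The study's methods name kallisto on mm10 and edgeR, but the counts end in 5 tally lines of another form, so which tool made them and its strand setting are not stated. The 5 lines were left out, and CPM were taken over gene counts. For ATAC-seq the authors deposited broadPeak lists from MACS2, 1 per condition and called without a control, with a fold enrichment ratio, -log10 p and -log10 q values and a score, which was not used. The study states that 4 wounds of 2 mice were pooled per sample.

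Genes were filtered by group with filterByExpr, scaled by TMM and fitted with the edgeR 4.0.16 quasi-likelihood model (R 4.3.3, limma 3.58.1) over all 7 libraries in 1 fit, two-sided, with Benjamini-Hochberg adjustment over 14045 genes. The single Grhl3-cKO unwounded library is assumed to vary like the other groups. The same holds for the 1 library that remains in a group when its other replicate is left out, so the spread then comes from other groups. Log2 CPM for the 2-fold rule used a prior count of 2. Alternatives were DESeq2 1.42.0, the edgeR likelihood ratio test, other scaling, other filters, other prior counts, other peak thresholds and windows, lists of equal length, and leaving out each library. Peaks were overlapped with GENCODE vM21 genes in Python 3.11.15, and 23376 of the 24421 symbols matched. RefSeq promoter windows are of GRCm38.p6, the assembly of mm10.

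Fit values are named for the 3 members of each role with the smallest unadjusted p in each tested comparison and for the most abundant member of each role. From the pathway lists they are named for genes with an unadjusted p under 0.05, at most 4 per list, and for the most abundant gene of each. From the marker lists fit values are given for Krt1, Thy1, Mitf, Dct and Col1a2, and for Cd74 and H2-Aa as pathway genes. Other marker genes were also higher after wounding in WT at an unadjusted edgeR p under 0.05. Krt6a, Krt16, Lyz2, Pecam1 and Acta2 are among them, and their fit values are not given. Samhd1, with an unadjusted p under 0.05 in WT, also has fit values given, outside the rule for members. The members and all lists were chosen with earlier results of these data known.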

Additional observations from a re-analysis of the deposited data

Results flagged for a closer look

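For 4 members both wounded libraries moved one way from the unwounded libraries in WT and the opposite way in the libraries labelled Grhl3-cKO, as differences of log2 CPM, wounded minus unwounded. These are 9.76% of the 41 members that passed the filter, beside 10.4% of all genes that passed it. Ddx58 had 0.23 in WT and -0.47 in Grhl3-cKO, and Dtx3l had 0.39 and -0.21. Mx2 had 1.03 and -0.29. Xaf1 had -0.98 in WT and 2.2 in Grhl3-cKO, where the single unwounded library held 2 counts. The differences between genotypes were not tested, and each Grhl3-cKO value rests on the same unwounded library, the only one with the sex-linked counts of a female.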

How the results depend on the processing

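After wounding in WT, members with an unadjusted p under 0.05 were 11 of 680 genes, and every one of them was higher under all alternatives run. They were 6 with at least 10 counts required in every library, a filter that tests fewer members, and 4 to 12 on leaving out single libraries; the likelihood ratio test gave 1117 genes. Under DESeq2, RLE scaling, no filter and only the 4 libraries compared the count lay from 10 to 13. In the genotype comparison the 2 of 567 genes became 5 of 873 by the likelihood ratio test, 4 members without a filter, 1 with at least 10 counts, and 1 to 4 members of 420 to 855 genes on leaving out single libraries. With a replicate block the counts were 9 of 719 and 2 of 596 genes, with medians of 0.63 and -0.51. Libraries that share a replicate number are not stated to share an animal. On leaving out single libraries the member medians ranged from 0.47 to 0.66 in WT and from -0.61 to -0.37 between genotypes; with at least 10 counts they were 0.25 and -0.29. By the 2-fold rule, Grhl3-cKO wounded against unwounded gave 4 members of 1346 genes, 0 of 460 with at least 10 counts, and 8 to 10 of 2520 to 2657 on leaving out single libraries. Grhl3-cKO against WT unwounded gave 4 of 1404, 2 members with a prior count of 5, 0 of 536 with at least 10 counts, and 7 to 12 of 2570 to 2897 on leaving out single libraries, where fewer libraries must differ. Members with a region within 5000 bases fell to 16 in WT wounded and 13 in Grhl3-cKO unwounded keratinocytes at a fold enrichment of at least 4, and start regions to 14 and 12. The Grhl3-cKO wounded list then held the most, 23 and 20, or 53.5% of members beside 38.7% of all annotated genes within 5000 bases and 46.5% beside 28.0% at the start; for WT wounded these were 37.2% beside 48.1% and 32.6% beside 33.4%. With lists of equal length the WT wounded, Grhl3-cKO unwounded and Grhl3-cKO wounded counts were 5, 10 and 13 within 5000 bases, beside 30.3%, 31.6% and 30.4% of all annotated genes, and 5, 9 and 10 at the start. Within 20000 bases the WT unwounded list held 14, or 32.6% beside 43.4%. Of the single-gene values under alternatives, 434 in WT kept their side of the threshold, 48 lost an unadjusted p under 0.05 and 4 gained one; between genotypes these were 457, 15 and 15. Unless stated, the cause was not tested.

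With 1 or 2 libraries a group and 25 members under 5 CPM, many members had too few counts to compare, and 3 counts was the floor. No ATAC-seq list has a replicate, and the lists give no depth.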
